A study of Mus musculus with 10 samples.

Results

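Albumin and 8 other carrier proteins that hepatocytes secrete into plasma were measured as transcripts in the livers of mice with lung tumours. The genes were Alb, Afm, Gc, Ttr, Rbp4, Trf, Ahsg, Fetub and Serpina6. They were listed by name as abundant carriers and negative acute-phase genes, with no threshold on their values, although earlier results of these livers were known when the list was made. All 9 were found among the 43629 genes of the count table and all 9 passed the filter on low counts. RNA-seq was performed on livers of 5 NCACS (non-cachectic) and 5 CACS (cachectic) male KL mice, and each liver is named here by the number of its mouse, 11 to 15 for NCACS and 16 to 20 for CACS. KL mice carry inducible alleles, Lkb1 f/f among them, on an FVB background, and tumours were induced in adults by adenovirus that expresses Cre from the CMV promoter and was given through the nose. Both groups carried these alleles, received the virus and had tumours, so the comparison holds no tumour-free liver. NCACS mice had a weight change of -8 ± 4.64% (SD, n = 5), from -14 to -3%, and CACS mice one of -30.6 ± 1.82% (SD, n = 5), from -33 to -29%. The question was whether transcripts for the major carriers of plasma differ in the liver once a tumour-bearing mouse becomes cachectic.

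Carrier proteins keep fatty acids, hormones, vitamins and metals in solution and away from tissues until they are taken up. Several of them, albumin and transthyretin above all, are called negative acute-phase proteins, because the liver makes less of them during inflammation while it makes more serum amyloid A, haptoglobin and other positive acute-phase proteins. Low plasma albumin and transthyretin are also long-standing clinical signs of inflammation and undernutrition.

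Total counts lay between 31945328 and 38306888 in NCACS and between 31459179 and 40746178 in CACS livers. Of 14143 genes tested by the quasi-likelihood test of edgeR, 538 had an adjusted p (Benjamini-Hochberg) under 0.05, of which 267 were higher and 271 lower in CACS livers. Hepatocyte markers were abundant in every liver, with summed levels of 15926 to 20600 CPM (counts scaled to a common depth with TMM factors) in NCACS and 20379 to 23670 CPM in CACS livers over 7 genes. Levels of 6 Kupffer cell markers summed to 149.9 to 250.8 CPM in NCACS and 87.3 to 175.0 CPM in CACS livers. In whole liver, fewer cells of a type and less RNA per cell cannot be told apart.

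Alb, Afm and Gc belong to the albumin family and lie on chromosome 5 of GRCm38. Gc (ENSMUSG00000035540, reverse strand, 89417522 to 89457898) encodes the vitamin D binding protein, Alb (ENSMUSG00000029368, forward strand, 90460897 to 90476602) encodes albumin, and Afm (ENSMUSG00000029369, forward strand, 90518932 to 90553543) encodes afamin, a carrier of vitamin E. Afm starts 42.3 kb after the end of Alb, and Gc lies 1003.0 kb upstream of Alb. RefSeq promoters (build GRCm38.p6, 250 bases before the start) were given for 6 of the 9 genes. The RefSeq starts can differ from the gene bounds printed here, and that of Alb is at 90460870. The Alb promoter held the D-box letters TTATGTAA, as bound by the clock-driven factors DBP, TEF and HLF, on both strands, beginning 223 bases before the start on the gene's own strand and 204 bases before it on the opposite strand. These letters were in no promoter of the other 5 genes and in 0.819% of 32851 RefSeq promoters on either strand. Because Alb took the largest share of counts and varied most in absolute terms between livers, its window is shown 5′ to 3′, with both matches in capitals.
Alb, chr5:90460621-90460680, forward strand: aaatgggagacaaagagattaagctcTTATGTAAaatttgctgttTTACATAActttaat

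The letters TTCNNNGAA, as bound by STAT proteins, were in 7.02% and TTGCNCAA, as bound by C/EBP proteins, in 2.61% of all promoters, and neither was found in any promoter of the 6 genes. TATAAA was present in Afm, at 30 bases before the start, in Fetub at 31 and in a downstream start of Rbp4 at 28, against 12.4% of all promoters. CCAAT was present in Alb, Rbp4, Gc, Afm and Fetub on one strand or the other, against 33.8% of all promoters. Rbp4 and Fetub each have a second start that held no CCAAT, whereas the percentages count each start on its own. The second start of Fetub held none of the patterns. Ahsg held none of the 5 patterns, but its RefSeq start, at 22892015, lies inside the gene bounds given below. The window searched for Ahsg was thus within the gene. These are matches of letters within 250 bases and were not tested as binding sites.

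The genes covered a wide range of levels. Expressed per length of exons, Alb was the highest in every liver, with 29286 ± 7880 CPM per kb (SD, n = 5) in NCACS and 39642 ± 3953 CPM per kb (SD, n = 5) in CACS livers. In NCACS livers the order was then Ttr at 6218, Gc at 4255, Ahsg at 3985, Rbp4 at 2094, Trf at 402.8, Fetub at 302.7, Serpina6 at 222.7 and Afm at 105.9 CPM per kb. Gc and Ahsg overlapped in that order, and Gc was above Ahsg in 3 of 5 livers. The ranges of Trf, Fetub, Serpina6 and Afm each overlapped with the next in order as well. Trf overlaps another gene model on its own strand, as described below, so its level and its place in both groups are uncertain. In CACS livers Ahsg, at 5813 ± 608 CPM per kb (SD, n = 5), stood above Gc, at 4412 ± 458 (SD, n = 5), in 4 of 5 livers. There Ahsg overlapped with Ttr, at 5976 ± 1128 CPM per kb (SD, n = 5), and Fetub, at 509.6, stood above Trf, at 459.1 CPM per kb, in 4 of 5 livers. By mean count Alb ranked 1, Ahsg 5, Gc 13 and Ttr 15 among the tested genes, and Afm, the least abundant, ranked 418.

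Together the 9 genes took a larger share of all counts in CACS than in NCACS livers. The summed share was 11.49, 11.26, 8.094, 10.98 and 7.04% in NCACS mice 11 to 15, and 12.26, 12.11, 13.86, 12.87 and 12.73% in CACS mice 16 to 20. NCACS mice 13 and 15 were well below the other 3 NCACS mice, and no NCACS liver reached the lowest CACS liver. The mean was 9.77 ± 2.06% in NCACS and 12.8 ± 0.689% in CACS livers (SD, n = 5 each). Without Alb, the other 8 genes took 2.93 ± 0.242% and 3.47 ± 0.224% (SD, n = 5 each), again without overlap, with 2.554 to 3.218% in NCACS and 3.237 to 3.827% in CACS livers. The sums add genes of either direction and were not tested. Counting error was small beside the spread between mice, as the widest 95% Wilson interval of any share in a single liver, for Serpina6 in NCACS mouse 15, extended 2.59% of the share to either side.

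**Figure D1:**
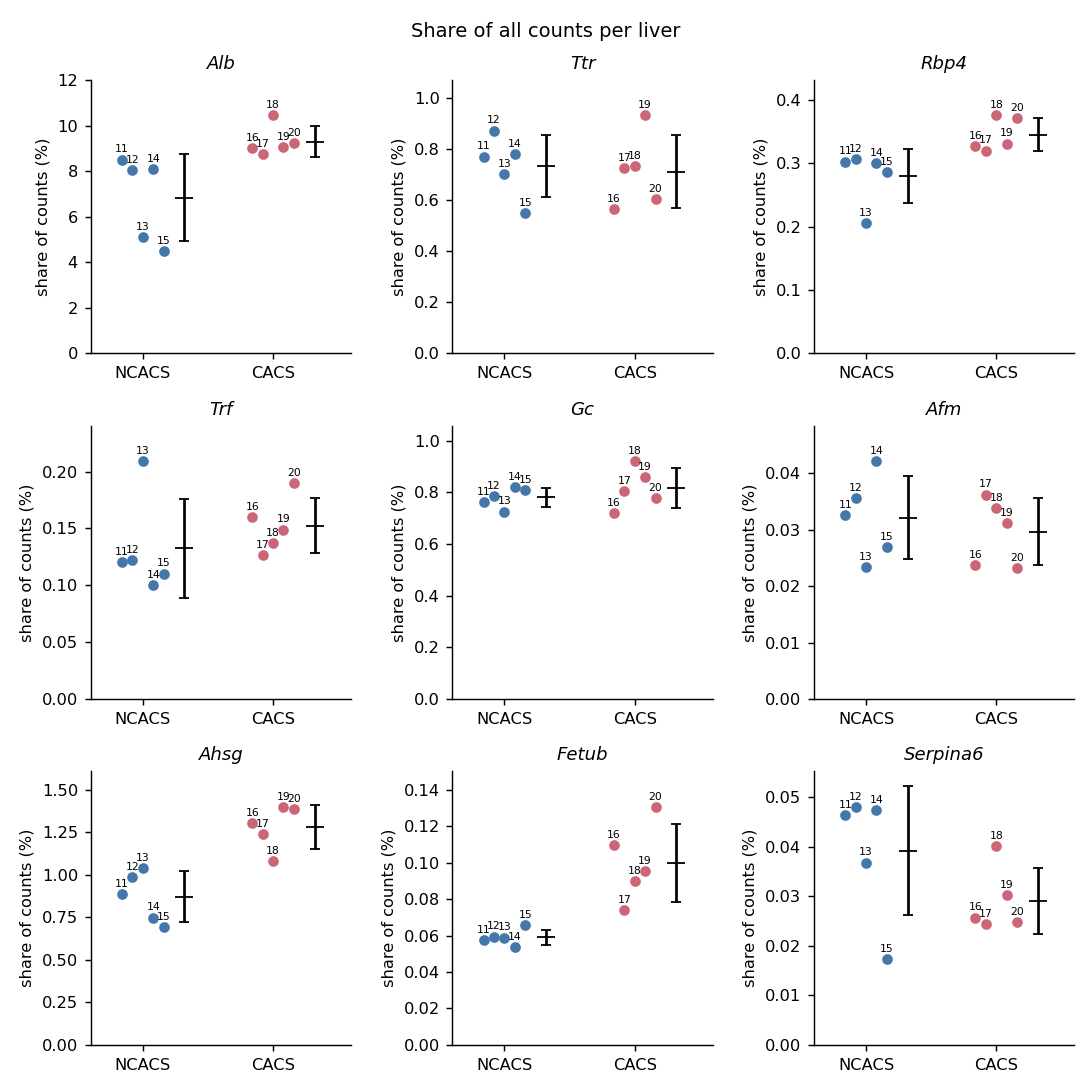
Share of all counts (%, y axes starting at 0) for each of the 9 carrier genes in 5 NCACS (blue) and 5 CACS (red) livers, with points numbered by mouse and bars showing the mean and SD. The groups do not overlap for Alb, Rbp4, Ahsg and Fetub and overlap for the other 5 genes.

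Albumin, the most abundant plasma protein and the main carrier of fatty acids, accounted for most of the difference in summed share. Alb took 8.508, 8.046, 5.094, 8.083 and 4.486% of counts in NCACS mice 11 to 15 and 9.023, 8.762, 10.45, 9.043 and 9.224% in CACS mice 16 to 20. All 5 CACS livers were above all 5 NCACS livers, but 3 NCACS livers lay close below the CACS range while mice 13 and 15 lay far below it. The mean was 6.84 ± 1.90% in NCACS and 9.30 ± 0.665% in CACS livers (SD, n = 5 each), a difference of 2.46 percentage points. The coefficient of variation was 27.7% in NCACS and 7.15% in CACS livers. A two-sided exact permutation test gave p = 0.00794, the smallest it can give, and 0.0397 after Benjamini-Hochberg adjustment over the 5 exact tests of Alb and of 4 ratios. With CACS mouse 16, 17, 18, 19 or 20 left out, the adjusted p of this exact test was 0.0794, 0.0794, 0.0992, 0.0794 and 0.0794. The difference was then 2.17 to 2.59 points. With NCACS mouse 11, 12, 13, 14 or 15 left out, the adjusted exact p was 0.0198, 0.0397, 0.0397, 0.0397 and 0.0397. Leaving out NCACS mouse 15 reduced the difference to 1.87 points.

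After TMM scaling the groups overlapped, with NCACS mouse 11 at 88873 CPM above CACS mouse 17 at 82140 and CACS mouse 19 at 88809 CPM. Tested by edgeR over all genes, Alb had a log2 fold change of 0.44 with a standard error of 0.227 and an adjusted p of 0.290, past no threshold. The call for Alb thus differed between its share of counts tested by permutation and its scaled level tested by edgeR. These differ in measure, in test and in adjustment, which was over 5 exact tests or over 14143 genes. Before adjustment the p of edgeR was 0.0789. A fit by edgeR with raw library totals did not pass either. Other abundant transcripts in the denominator moved with the groups. Genes of the mitochondrial genome took 4.38 ± 0.669% of counts in NCACS and 3.57 ± 0.493% in CACS livers (SD, n = 5 each). Mup genes, which encode the major urinary proteins, took 1.22 ± 0.59% and 0.379 ± 0.164% (SD, n = 5 each). Both were lower in CACS livers without overlap. For mitochondrial genes the groups nearly met, at 3.959% in NCACS mouse 12 and 3.95% in CACS mouse 16. With mitochondrial genes removed from the denominator, Alb took 7.16 ± 1.998% and 9.65 ± 0.697%, and with Mup genes removed 6.92 ± 1.89% and 9.34 ± 0.671% (SD, n = 5 each), in both cases without overlap. Both sets are a small part of all counts, so their removal could change the Alb shares only a little.

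The relatives Afm and Gc did not pass as single genes. Afm had 340.1, 339.9, 241.8, 411.9 and 275.0 CPM in NCACS mice 11 to 15 and 241.8, 339.7, 347.9, 306.9 and 236.2 CPM in CACS mice 16 to 20. The groups overlapped over almost their whole range. For Afm the log2 fold change in edgeR was -0.13 ± 0.167 (standard error), with an adjusted p of 0.709, and it was -0.02 without NCACS mouse 14 and -0.21 without NCACS mouse 13. Gc had 7981, 7508, 7500, 8018 and 8247 CPM in NCACS mice 11 to 15 and 7342, 7537, 9455, 8432 and 7939 CPM in CACS mice 16 to 20. Gc was the steadiest of the genes in NCACS livers, with a coefficient of variation of its share of 4.83%, including mice 13 and 15, in which Alb was low. For Gc it was 0.05 ± 0.133 (standard error, adjusted p = 0.860 by edgeR).

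Ratios of counts within a liver do not depend on library scaling. The log2 ratio of Afm to Alb was -8.03, -7.82, -7.77, -7.58 and -7.38 in NCACS mice 11 to 15 and -8.57, -7.92, -8.27, -8.18 and -8.64 in CACS mice 16 to 20. It was lower in CACS livers by a mean of 0.60, at 0.660 times the NCACS ratio, with overlap between NCACS mouse 11 and CACS mouse 17 (two-sided exact permutation test, p = 0.0159, adjusted p = 0.0397 over 5 tests). The log2 ratio of Gc to Alb was -3.48, -3.35, -2.81, -3.30 and -2.47 in NCACS mice 11 to 15 and -3.65, -3.45, -3.51, -3.40 and -3.57 in CACS mice 16 to 20. The 3 other NCACS livers lay within or just above the CACS range, and mice 13 and 15 lay far above it. The mean ratio of Gc to Alb in CACS was 0.743 times that in NCACS livers (two-sided exact permutation test, p = 0.0238, adjusted p = 0.0397 over 5 tests). The tests of both ratios and of the Alb share use the same Alb counts, so they are not separate results. Without NCACS mouse 11, 12, 13 or 14 the adjusted exact p was 0.0397 or less for both ratios. Without NCACS mouse 15 the log2 difference was -0.51 for Afm to Alb and -0.28 for Gc to Alb, each with an adjusted exact p of 0.0529. Without any 1 of the CACS mice 16 to 20 the differences lay between -0.70 and -0.52 for Afm to Alb and between -0.46 and -0.40 for Gc to Alb, and the adjusted exact p was 0.0794 or more for both.

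**Figure D2:**
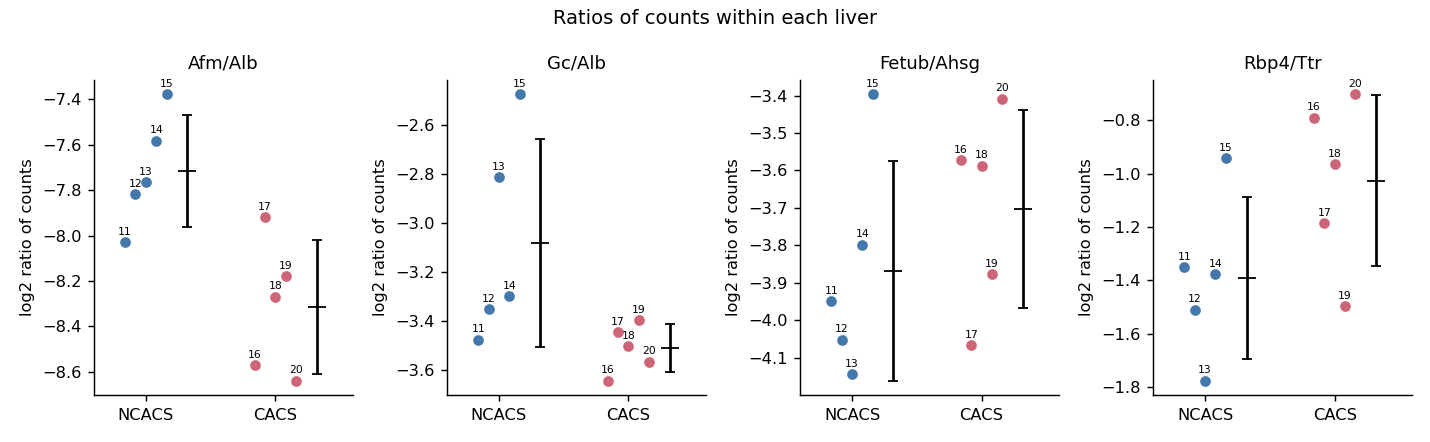
Log2 ratio of raw counts of 4 gene pairs (y axes, not starting at 0) in each NCACS (blue) and CACS (red) liver, with mouse numbers, mean and SD. Afm/Alb and Gc/Alb are lower in CACS livers with some overlap, while Fetub/Ahsg and Rbp4/Ttr overlap widely.

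Transthyretin and the retinol binding protein travel in plasma as a complex that carries thyroxine and retinol. Ttr (ENSMUSG00000061808, chromosome 18, forward strand, 20665280 to 20674321) had 8061, 8332, 7248, 7630 and 5602 CPM in NCACS mice 11 to 15 and 5761, 6821, 7522, 9162 and 6171 CPM in CACS mice 16 to 20. The lowest liver was an NCACS and the highest a CACS liver. In edgeR, Ttr differed by -0.06 ± 0.174 (log2 fold change, standard error, adjusted p = 0.886), and by 0.01 without CACS mouse 16. No direction can be given for Ttr from these livers.

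Rbp4 (ENSMUSG00000024990, chromosome 19, reverse strand, 38116629 to 38125281) took 0.3026, 0.307, 0.2051, 0.3009 and 0.2859% of counts in NCACS mice 11 to 15 and 0.3271, 0.3201, 0.3756, 0.331 and 0.3717% in CACS mice 16 to 20. All CACS livers were above all NCACS livers in share, by a small margin for 3 of them, and NCACS mouse 13 stood far below the rest. After TMM scaling the groups overlapped, since NCACS mouse 11 at 3161 CPM was above CACS mouse 17 at 3001 CPM. For Rbp4, edgeR gave a log2 fold change of 0.29 with a standard error of 0.145 and an adjusted p of 0.268. The log2 ratio of Rbp4 to Ttr was -1.39 ± 0.302 in NCACS and -1.03 ± 0.320 in CACS livers (SD, n = 5 each), a difference of 0.36 that did not pass (two-sided exact permutation test, p = 0.0952, adjusted p = 0.119 over 5 tests).

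Trf (ENSMUSG00000032554, chromosome 9, reverse strand, 103204001 to 103230444) encodes transferrin, which delivers iron to cells. Trf had 1260, 1163, 2160, 978.5 and 1125 CPM in NCACS mice 11 to 15 and 1627, 1186, 1407, 1463 and 1938 CPM in CACS mice 16 to 20. NCACS mouse 13 was the highest of all livers and the other 4 NCACS mice were among the lowest 5. Its log2 fold change was 0.19 ± 0.219 (standard error, edgeR adjusted p = 0.664), and it was 0.43 without NCACS mouse 13 and 0.09 without CACS mouse 20. The gene overlaps a second model on the same strand, Gm20425, which had 0 counts in every liver, and any reads common to both are uncertain.

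The fetuins had the largest log2 fold changes of the 9 genes. Ahsg (ENSMUSG00000022868, forward strand, 22891277 to 22899449) encodes fetuin-A, which binds calcium phosphate and fatty acids, and Fetub (ENSMUSG00000022871, forward strand, 22918334 to 22939778) encodes its relative fetuin-B, a protease inhibitor. The genes are neighbours on chromosome 16, separated by 18.9 kb. Fetub had 600.1, 566.7, 607.9, 525.9 and 668.6 CPM in NCACS mice 11 to 15 and 1116, 694.5, 923.0, 934.5 and 1331 CPM in CACS mice 16 to 20. All 5 CACS livers were above all 5 NCACS livers, with CACS mouse 17 close to NCACS mouse 15. Mean levels were 594 ± 52.9 CPM for NCACS and 999.8 ± 238 CPM for CACS (SD, n = 5 each). Fetub rose, with a log2 fold change of 0.75 ± 0.164 (standard error) and an adjusted p of 0.0332 in edgeR. It was the only carrier gene past the threshold in this test. With 1 mouse fewer the call was often lost, and the edgeR adjusted p was between 0.0503 and 0.0746 when NCACS mouse 11, 12, 13, 14 or 15 or CACS mouse 16, 19 or 20 was left out, with log2 fold changes of 0.63 to 0.80.

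Ahsg had 9277, 9397, 10746, 7313 and 7038 CPM in NCACS mice 11 to 15 and 13273, 11630, 11091, 13734 and 14129 CPM in CACS mice 16 to 20. Again no NCACS liver reached the lowest CACS liver, although NCACS mouse 13 and CACS mouse 18 were close. As a mean share Ahsg took 0.871 ± 0.1497% of NCACS and 1.28 ± 0.130% of CACS counts (SD, n = 5 each), the largest difference in points after Alb. Its log2 fold change of 0.54 ± 0.167 (standard error) did not pass in edgeR (adjusted p = 0.0889), whereas DESeq2 gave an adjusted p of 0.00504. The log2 ratio of Fetub to Ahsg was -3.87 ± 0.293 in NCACS and -3.70 ± 0.264 in CACS livers (SD, n = 5 each). Its difference of 0.17 was smaller than the spread between mice (two-sided exact permutation test, p = 0.389), and it ranged from 0.0924 (CACS mouse 20 left out) to 0.28 (NCACS mouse 15 left out). An annotated antisense gene, Gm30505, overlaps Ahsg and was not analysed here.

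Serpina6 (ENSMUSG00000060807, chromosome 12, reverse strand, 103646630 to 103657212) encodes transcortin, the plasma carrier of glucocorticoids. It had 484.0, 457.7, 379.8, 462.5 and 177.1 CPM in NCACS mice 11 to 15 and 261.5, 229.0, 411.0, 297.4 and 252.9 CPM in CACS mice 16 to 20. The lowest liver was NCACS mouse 15, 4 of the NCACS livers were among the highest 5, and the groups overlapped. With -0.43 ± 0.254 (standard error, edgeR adjusted p = 0.343), Serpina6 had the lowest log2 fold change of the 9 genes. Without NCACS mouse 15 it was -0.62, with an adjusted p of 0.0867 from edgeR.

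Of the 9 genes, 1 had an adjusted p under 0.05 in edgeR's test, against 3.8% of all genes tested in either direction and 1.89% in the direction of higher levels in CACS. Unadjusted p-values under 0.05 were found for 2 of the 9, Ahsg and Fetub, against 21.6% of all genes, a share close to the background. Levels on the log2 CPM scale did not overlap, with CACS higher, for the same 2 genes, against 3.95% of all genes. Shares of counts did not overlap, with CACS higher, for 4 of the 9, Alb, Rbp4, Ahsg and Fetub, against 3.67% of all genes. Log2 fold changes were above 0 for 6 and below 0 for 3 genes, with a median of 0.19 beside a median of -0.0053 over all genes tested. Both counts without overlap are descriptions and were not tested. The lists and markers below have the same background, with 21.6% of all genes at an unadjusted p under 0.05. Of all 14143 genes tested, 7161 were below 0, and DESeq2 called 1386.

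**Figure D3:**
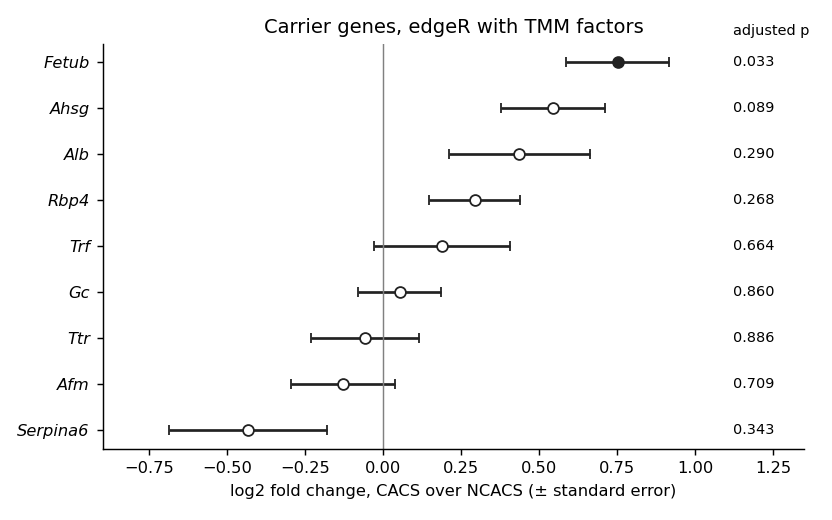
Log2 fold change of CACS over NCACS livers (x axis) with its standard error for the 9 carrier genes, from edgeR with TMM factors, with adjusted p-values at the right. The filled point marks Fetub at 0.75, the only gene with an adjusted p under 0.05, and Serpina6 is lowest at -0.43.

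The genes did not vary as one group among mice of the same condition. Correlations were computed over the 10 livers after subtraction of each group's mean log2 CPM, as a description of 36 pairs that share libraries and scaling. Over all 10 livers Alb had r = 0.851 with Serpina6 (rho = 0.818), 0.598 with Rbp4 (rho = 0.818), 0.581 with Afm, 0.542 with Ttr, 0.185 with Gc, 0.0723 with Ahsg, -0.116 with Fetub and -0.268 with Trf. Several of these values rested on NCACS mice 11 and 15, the livers farthest in Alb. Without them r was 0.906 with Rbp4, 0.685 with Serpina6, 0.606 with Afm, 0.488 with Gc, 0.197 with Ttr, 0.0358 with Fetub, -0.601 with Ahsg and -0.614 with Trf. The order of the genes by likeness to Alb therefore changed with those mice, while Serpina6, Rbp4 and Afm had r above 0.5 either way. Trf ran with Ahsg (r = 0.790) and against Afm (r = -0.809), with r = 0.641 and -0.647 without NCACS mouse 13 and CACS mouse 20. The fetuin neighbours themselves had r = 0.329. Among 2598 tested genes of at least 50 CPM, those most like Alb in the same centred levels were Ak4 (r = 0.943), Slco2b1 (r = 0.941), Gys2 (r = 0.916), Xylb (r = 0.907) and Clcn2 (r = 0.906), each over 10 livers. These encode a mitochondrial adenylate kinase, an organic anion transporter, liver glycogen synthase, xylulokinase and a chloride channel. Picked as the highest of 2598 genes over 10 livers, they would have high values of r by the picking alone, and these were not tested. Without NCACS mice 11 and 15 r was 0.96 for Ak4, 0.866 for Slco2b1, 0.924 for Gys2, 0.846 for Xylb and 0.734 for Clcn2. The livers kept there also served to pick the genes, so these values are no separate check. None of the 5 passed the threshold between the groups, and their adjusted p-values from edgeR were between 0.440 and 0.827.

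The spread of Alb in NCACS mice stood beside that of positive acute-phase genes. Summed over 21 tested genes of a list of 22, these took 44328, 47779, 135252, 26964 and 67468 CPM in NCACS mice 11 to 15 and 57135, 27932, 42996, 54261 and 58561 CPM in CACS mice 16 to 20. NCACS mice 13 and 15 had the 2 highest sums of all livers and the 2 lowest Alb shares. They also had the largest weight losses of the NCACS group, at -11 and -14%. Across groups the order was different, as the CACS mice, with a weight change of -33 to -29%, had the highest Alb shares. Within groups a higher sum did not always go with a lower share. NCACS mouse 14 had the lowest sum of all livers but a lower Alb share, at 8.083%, than NCACS mouse 11, at 8.508%. CACS mouse 17 had the lowest sum and the lowest Alb share, at 8.762%, of its group. Hp and Hpx, the most abundant genes of the list, which encode haptoglobin and hemopexin, had log2 fold changes of -0.45 and -0.47 (edgeR adjusted p = 0.664 and 0.614). Of the 21 genes, 0 passed in edgeR, 0 in limma-voom and 2 in DESeq2, 2 had an unadjusted p under 0.05 in edgeR, and 15 were below 0, with a median of -0.14. The 2 were in both cases Saa1 and Saa2, named here after their values were seen, which encode serum amyloid A. In NCACS mice 11 to 15 Saa1 had 1905, 3017, 13592, 47.91 and 3431 CPM, and in CACS mice 16 to 20 it had 899.1, 12.54, 131.3, 333.6 and 602.1 CPM. The acute-phase genes are themselves part of the counts over which the Alb share was taken. The part of the acute-phase level in the values of Alb was not tested.

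**Figure D4:**
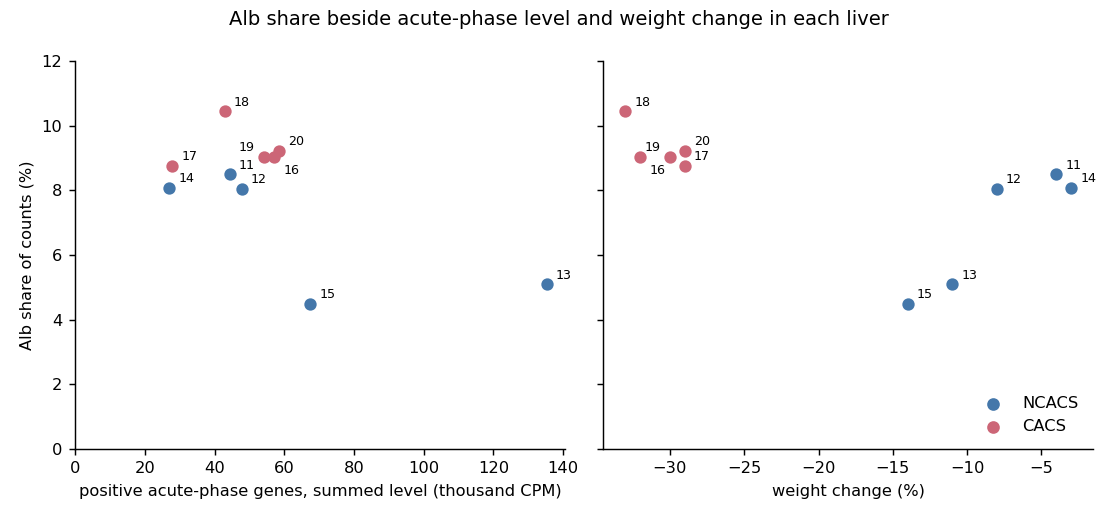
Share of Alb in all counts (%, y axis) of each liver against the summed level of 21 positive acute-phase genes (left, in units of 1000 CPM) and against weight change (%, right), with NCACS mice in blue and CACS mice in red. NCACS mice 13 and 15 have the lowest Alb shares, the highest acute-phase sums and the largest weight losses of their group. NCACS mouse 14 has the lowest sum of all livers but not the highest Alb share. CACS mouse 17 has both the lowest sum and the lowest share of its group.

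Of 18 regulators of liver genes tested, edgeR and limma-voom each called 1, Hnf4a, and DESeq2 called 3, Hnf4a, Onecut1 and Cebpd. Hnf4a, which encodes a nuclear receptor central to hepatocyte identity, had 568.1 to 687.9 CPM in NCACS and 728.7 to 1007 CPM in CACS livers, without overlap. It rose by 0.50 ± 0.120 on the log2 scale (standard error, edgeR adjusted p = 0.0435). It passed in 1 of 10 fits with a mouse left out, and the adjusted p reached 0.0974 in the others. Cebpd, named after its values were seen, had a log2 fold change of 1.23 (edgeR adjusted p = 0.119). Cebpa, the next most abundant after Hnf4a, was at -0.17 (edgeR adjusted p = 0.632). Dbp, Tef and Hlf, named here for the D-box letters above and after their values were seen, did not pass. Their log2 fold changes were -0.85 for Dbp, 0.35 for Tef and -0.06 for Hlf (edgeR adjusted p = 0.508, 0.655 and 0.864). Dbp had 82.86, 71.63, 52.07, 66.03 and 1.266 CPM in NCACS mice 11 to 15 and 18.79, 34.26, 20.69, 58.79 and 19.21 CPM in CACS mice 16 to 20. Tef had 306.3, 272.8, 149.2, 229.8 and 38.51 CPM in NCACS mice 11 to 15 and between 229.3 and 288.8 CPM in CACS livers. NCACS mouse 15, the liver with the lowest Alb share, was the lowest of all 10 in both Dbp and Tef. It was not the lowest in Hlf, at 57.1 CPM, against 42.6 CPM in CACS mouse 17 and 49.25 CPM in NCACS mouse 13. NCACS mouse 13, next lowest in Alb share, was below every CACS liver in Tef. In Dbp, however, it was above CACS mice 16, 17, 18 and 20. Nfil3, a further regulator of the list named after its values were seen, had a log2 fold change of -0.50 (edgeR adjusted p = 0.57). Nfil3 had 17.47, 18.47, 35.57, 16.8 and 72.45 CPM in NCACS mice 11 to 15 and 32.15, 14.85, 39.19, 10.7 and 16.58 CPM in CACS mice 16 to 20. The part of these factors in the values of Alb was not tested. The median over the 18 genes was 0.10, with 6 unadjusted p-values under 0.05, against 21.6% of all genes.

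Other plasma carriers gave 0 calls in edgeR and limma-voom and 2 in DESeq2. Of 15 listed, 13 were tested, 6 of them above and 7 below 0, with a median of -0.15, and 2 had an unadjusted p under 0.05. The 2 were in both cases Serpina7 and Kng2, named after their values were seen. The list shares Hp, Hpx, Cp, Orm1, Orm2 and Orm3 with the positive acute-phase list. Of these shared genes only Orm3 was above 0, so the lists are not separate results. Serpina7, the thyroxine binding globulin gene, had 46.28, 77.33, 102.9, 30.41 and 95.92 CPM in NCACS mice 11 to 15 and 209.6, 241.7, 131.9, 278.3 and 64.48 CPM in CACS mice 16 to 20. All CACS livers other than mouse 20 were above every NCACS liver, and the log2 fold change was 1.39 ± 0.406 (standard error, edgeR adjusted p = 0.0774). Kng2, a kininogen gene, is near the fetuins on chromosome 16 and had 310.2 to 345.3 CPM in NCACS and 353.2 to 540.5 CPM in CACS livers, without overlap, and a log2 fold change of 0.41 (edgeR adjusted p = 0.0741). The other neighbours of the fetuins, Hrg and Kng1, had log2 fold changes of 0.26 and 0.25 (edgeR adjusted p = 0.377 and 0.457). Afp, the fetal relative that lies between Alb and Afm, had mean levels of only 2.95 ± 1.08 and 2.06 ± 0.493 CPM (NCACS and CACS, SD, n = 5 each).

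Among genes that take up or process the ligands of these carriers, 17 of 20 were tested and 1 was called, the same gene by edgeR, limma-voom and DESeq2. Cyp2r1, the 25-hydroxylase of vitamin D, the ligand of Gc, had 12.97, 11.18, 14.36, 12.29 and 11.61 CPM in NCACS mice 11 to 15 and 8.545, 7.345, 7.049, 7.099 and 8.618 CPM in CACS mice 16 to 20. Every CACS liver was below every NCACS liver. Cyp2r1 fell by 0.69 on the log2 scale (standard error 0.109, edgeR adjusted p = 0.012) and passed in all 10 fits with a mouse left out. Hsd11b1, which regenerates active glucocorticoid, and Tfr2, a transferrin receptor, both had log2 fold changes of 0.21 (edgeR adjusted p = 0.532 and 0.479).

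Secreted proteins outside the carrier group and the secretory machinery gave 0 calls in edgeR and in limma-voom, and 1 and 2 calls in DESeq2, respectively. Of 21 other secreted proteins, 12 were above and 9 below 0, with a median of 0.02 and 2 unadjusted p-values under 0.05. The most abundant of these, C3 (complement) and Apoa2 (an apolipoprotein), had log2 fold changes of 0.10 and -0.16 (edgeR adjusted p = 0.863 and 0.580). Of 16 genes for translocation, folding and export in the endoplasmic reticulum, 14 were below 0, against 7161 of 14143 genes tested, with a median of -0.25. An unadjusted p under 0.05 was found for 6 of the 16, against 21.6% of all genes. Calr and Hspa5, the most abundant chaperones of the 16, had log2 fold changes of -0.34 and -0.04 (edgeR adjusted p = 0.398 and 0.926). The summed level of the 16 genes was highest in NCACS mouse 13, at 5577 CPM, and lay between 2963 and 3668 CPM in CACS livers.

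**Figure D5:**
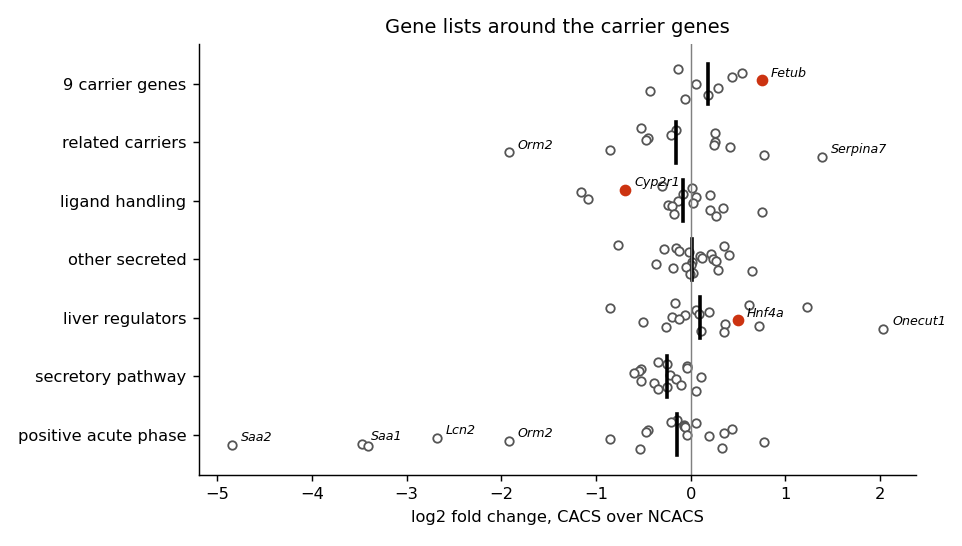
Log2 fold change of CACS over NCACS livers (x axis) for the tested genes of 7 lists (rows), with red points for genes with an adjusted p under 0.05 in edgeR's test, open points for the others and black bars for medians. The called genes are Fetub, Hnf4a and Cyp2r1, and the carrier genes have a median of 0.19. Hp, Hpx, Cp, Orm1, Orm2 and Orm3 appear both among the related carriers and among the positive acute-phase genes.

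Among markers of other cell types, those of Kupffer cells and leukocytes all lay below 0. All 6 Kupffer cell markers had log2 fold changes below 0, with a median of -0.85, and 1 passed, Cd5l, at -0.90 (edgeR adjusted p = 0.0374, past the threshold in 2 of 10 fits with a mouse left out). DESeq2 called 3 of the 6, Adgre1, Cd5l and Marco. Clec4f, the most abundant of them at 71.4 CPM over all livers, had a log2 fold change of -0.11 (edgeR adjusted p = 0.782). The 8 tested leukocyte markers were all below 0, with 0 calls in edgeR and 3 in DESeq2 and 5 unadjusted p-values under 0.05 in edgeR. Their sums were 11.9 to 36.71 CPM in NCACS and 7.895 to 19.31 CPM in CACS livers. Sums of endothelial markers were 129.7 to 184.0 CPM in NCACS and 162.1 to 212.1 CPM in CACS livers, and those of stellate cell markers 139.1 to 244.9 and 150.0 to 236.8 CPM. Cholangiocyte markers summed to 33.56 to 52.68 and 20.31 to 49.44 CPM, and erythroid markers to 212.2 to 455.6 and 283.4 to 477.0 CPM. The part of these cells in the carrier values was not tested.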

How the data were processed

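RNA of 10 livers was made into stranded poly(A) libraries, and per the labels the authors aligned reads to GRCm38 with STAR 2.4.1d and counted them per gene with HTSeq 0.6.1. The deposited values are raw counts with no normalization. The annotation release and the strand setting are not given in the sources used here, so overlapping and antisense genes are uncertain. Symbols, coordinates and exon lengths came from GENCODE M21, which lacked 1081 identifiers (70 of them tested), and 0 count columns were left unused.

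Genes were filtered with filterByExpr, scaled by TMM and tested with edgeR 4.0.16 (R 4.3.3) by the quasi-likelihood test, with Benjamini-Hochberg adjustment over 14143 genes and a threshold of 0.05. Log2 CPM used a prior count of 2. The share of Alb and 4 log2 ratios of raw counts were compared by two-sided exact permutation tests over 252 assignments. Alternatives were DESeq2 1.42.0, limma-voom (limma 3.58.1), other scalings and filters, a robust fit and each mouse left out. The scripts were tested on simulated data. No 2 livers of a group were duplicates, with a chi-square per degree of freedom of at least 46.1.

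The members and lists were chosen with earlier results of these data known. Named beside the 9 carriers were, for each list other than the cell type markers, genes past the threshold and the 2 most abundant ones where fewer than 2 passed, and the 5 genes most correlated with Alb. Others were chosen after their values were seen. Other livers of the study and its batch correction were not analysed here. Part of the genotype is not reported here.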

Additional observations from a re-analysis of the deposited data

Results flagged for a closer look

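In 3 of 26 combinations of a measure and a group, 1 liver stood far from the other 4, with a gap to its nearest neighbour over the group's range above the critical value of 0.71, which chance exceeds in about 1 in 20 groups. The Alb share of CACS mouse 18, at 10.45%, was the highest of its group with a ratio of 0.727. The Rbp4 share of NCACS mouse 13, at 0.2051%, was the lowest of its group with a ratio of 0.793. The Trf share of the same liver, at 0.2091%, was the highest of its group with a ratio of 0.80. NCACS mouse 13 also had the highest summed level of positive acute-phase genes of all livers, at 135252 CPM, and without it the log2 fold changes were 0.21 for Rbp4 and 0.43 for Trf, neither past the threshold in edgeR's test.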

How the results depend on the processing

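With other tests, scalings, filters and a robust fit, the 9 log2 fold changes kept their direction in all 11 alternatives, and Fetub had an adjusted p of at most 0.0380. All 11 used the same counts, and most were edgeR fits that differed in scaling or filter only, so they are not separate checks. DESeq2 differed in its calls, with 1386 genes in place of 538 and 2 carrier genes in place of 1, as Ahsg passed with a log2 fold change of 0.54. The other alternatives called 392 to 544 genes and 1 carrier gene. With each mouse left out in turn, 178 to 519 genes and 0 to 1 carrier genes were called, with Fetub between 0.63 and 0.86. Ttr turned direction without CACS mouse 16 (0.0101, range -0.17 to 0.0101) and Gc without CACS mouse 18 (-0.0056, range -0.0056 to 0.0886). The difference in Alb share ranged from 1.87 to 2.87 percentage points and stayed past the threshold in 5 of 10 such tests. The log2 differences ranged from -0.70 to -0.51 for Afm to Alb and from -0.53 to -0.28 for Gc to Alb, each past the threshold in 4 of 10. Fits with 4 mice in a group have fewer samples, and other causes were not tested. No paired analysis was possible because each mouse number occurs in 1 group only. With counts of at least 5734 for Serpina6 in any liver, the number of mice and not depth limits the precision.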

Other observations

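Onecut1, a liver regulator gene named here after its values were seen, had 7.18, 7.543, 7.632, 1.897 and 1.081 CPM in NCACS mice 11 to 15 and 13.84, 15.03, 24.05, 44.87 and 6.299 CPM in CACS mice 16 to 20. CACS mouse 20 lay within the NCACS range and the other 4 CACS livers above it, with a log2 fold change of 2.04 ± 0.593 (standard error, edgeR adjusted p = 0.0772, called by DESeq2). Tfrc, the transferrin receptor that takes up iron-loaded transferrin, also named after its values were seen, had 15.96, 19.39, 21.99, 9.124 and 9.666 CPM in NCACS mice 11 to 15 and 22.49, 29.54, 17.49, 21.35 and 38.08 CPM in CACS mice 16 to 20. Its log2 fold change was 0.76 with overlap between the groups (edgeR adjusted p = 0.136).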
